A study of Mus musculus with 12 samples.

Results

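The transcription of 7 genes that make, use or feed itaconate, nitric oxide and tetrahydrobiopterin was followed in 3T3-L1 pre-adipocytes, mouse fibroblasts able to become fat cells in culture, grown with or without macrophages of the mouse line RAW264.7. The genes were Acod1 (formerly Irg1), Nos2, Gch1, Pts, Spr, Slc7a2 and Ass1. They were chosen by name and with earlier results of these arrays known, among them the high co-culture ratios of Acod1, Nos2 and Gch1, so those ratios are given as a description with no test. The 7 genes had 9 of the 27508 probes that could be named, out of 20886 named genes in all, and 6 of them were among the 13833 genes bright enough to be tested.

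Acod1 decarboxylates cis-aconitate, an intermediate of the citrate cycle, to itaconate in the mitochondria of activated macrophages, and itaconate in turn inhibits succinate dehydrogenase and releases the factor NRF2 from its repressor KEAP1. Nos2 is the inducible nitric oxide synthase, which turns arginine into citrulline and nitric oxide. It needs tetrahydrobiopterin as a cofactor, which Gch1 (the rate-limiting GTP cyclohydrolase), Pts and Spr make from GTP in consecutive steps. Slc7a2 carries arginine into the cell, and Ass1 joins citrulline to aspartate on the way back to arginine. Acod1, Nos2 and Gch1 are known as genes that inflammatory stimuli induce in macrophages and in several other cell types.

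Each of the 12 arrays set co-cultured cells, labelled with Cy5, against cells grown alone, labelled with Cy3, under the same treatment and for the same time. The treatments were none (NT), 100 µM serotonin (S), 100 µM cortisol (C) and 100 µM of each hormone together (CS), for 6 h, 24 h or 48 h. The pre-adipocytes lay in the lower well and the macrophages in a porous insert above them, and RNA was taken from the pre-adipocytes. Every condition had 1 array and the dyes were never swapped, so any dye preference of a probe is part of its co-culture ratio, and nothing in the labels says that arrays came from separate cultures. P-values therefore cover the scatter among these 12 arrays around the fit of time and treatment, and it may be technical. The 12 arrays lay on 3 slides with 1 slide per time, so that time and slide cannot be told apart. By the authors' methods the medium, with its hormones, was renewed after 24 h. At 48 h this change cannot be told apart from time either. Ratios are log2 of co-cultured over alone, levels are normalized log2 intensities of 1 channel, and a gene is called where the limma adjusted p was under 0.05 and the change at least 1.5-fold. The probes well above background numbered 18395 to 21334 per array in cells alone and 19912 to 22769 in co-cultured cells.

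Some libraries went against their labels. Over the 9 of 12 listed glucocorticoid-induced genes that were measured on all arrays, among them Zbtb16, the library of cells alone labelled S 6h had a median level 0.83 above NT of the same time, and the library labelled S 24h had one 0.57 above it. The cells alone labelled CS 24h had a median 0.29 below NT (a difference of -0.29), while the other 5 cortisol libraries lay between 0.92 and 1.48 above. Zbtb16 alone differed from NT by 2.17 in S 6h and by 1.86 in S 24h, against 2.64 to 3.11 in those 5 cortisol libraries and 0.18 in S 48h, and it differed by 0.40 in CS 24h. In co-cultured cells the same medians followed the labels, between -0.16 and 0.19 in S and between 0.56 and 1.22 in C and CS. Zbtb16 differed there from NT by 0.68 in S 6h, 0.54 in S 24h and -0.51 in S 48h, against 2.05 to 2.48 in C and CS. Hormone results are therefore given with all 12 arrays and without the arrays labelled S 6h, S 24h and CS 24h, and those names stand below for the libraries as labelled.

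**Figure D1:**
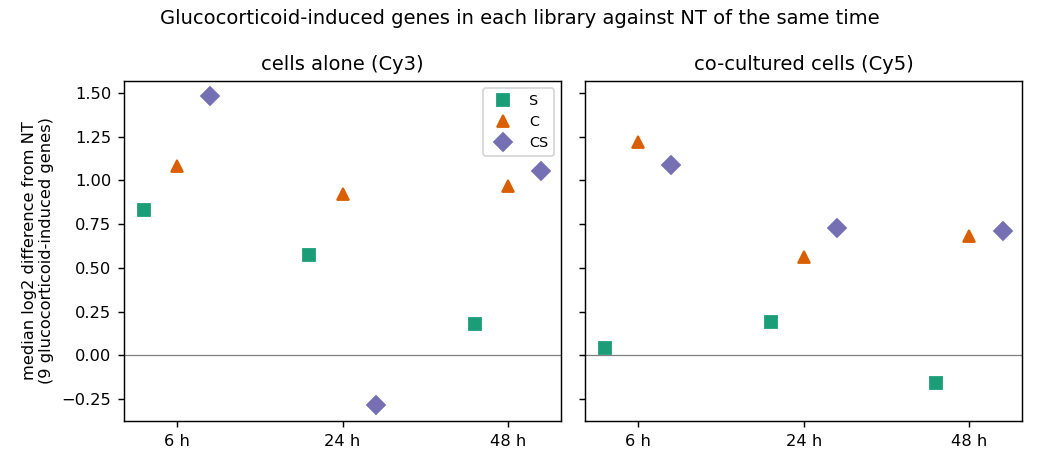
Median log2 difference from NT of the same time over 9 glucocorticoid-induced genes (vertical axis), by time (horizontal axis), for cells alone on the left and co-cultured cells on the right. Each point is 1 library, and in cells alone S 6h and S 24h lie at 0.83 and 0.57 while CS 24h lies at -0.29.

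The cells were checked against markers of both lines, listed with earlier results of these arrays known. Of 15 fibroblast markers all 15 were bright enough to be tested, and the level of Col1a2 in cells alone was between 16.94 and 17.21. In co-cultured cells over cells alone 1 of the 15 was called higher and 1 lower at 6 h (13.3%, against 9.67% of all genes). At 24 h 1 was higher and 2 lower (20% against 8.39%), and at 48 h 3 were higher and 4 lower (46.7% against 31.4%). At 48 h their median ratio was -0.28, Postn (-1.50 ± 0.10), Col3a1 (-1.32 ± 0.06) and Pdgfra (-1.07 ± 0.06) were lower and Fn1 (0.79 ± 0.05) was higher, and the part of this in the 48 h results below was not tested. Of 22 macrophage markers 16 could be tested. Ptprc, the pan-leukocyte phosphatase, was not well above background on 11 of 12 arrays in co-cultured cells, Cd68 had no named probe here, and Adgre1 was well above background on 1 of 12 arrays in cells alone and 3 of 12 co-cultured. Lyz2 was well above background on 7 and 8 arrays, so the ratios of both, from -0.33 to 0.04 and from -0.51 to 0.21, compare signals at or near background. Other macrophage markers were higher in co-cultured cells, with 7 of 16 called higher at 6 h (43.8% called, against 9.67% of all genes) and 2 at 24 h (12.5% against 8.39%), and with 6 called higher and 1 lower at 48 h (43.8% against 31.4%). Clec4d, a lectin of myeloid cells, had ratios between 0.94 and 2.18 and was well above background on 12 of 12 arrays in cells alone as well. Csf1r had ratios between 0.18 and 1.32 and Itgam between 0.10 and 0.85. Each had a probe well above background on 12 of 12 arrays in both channels. Tyrobp was well above background on 0 of 12 arrays in cells alone and 6 of 12 co-cultured. The ratios of Ctss ranged from -0.16 to 2.41 and those of Cd53 from -1.09 to 0.58. The summed linear intensity of the 16 markers was between 16371 and 19780 in co-cultured cells and between 8479 and 11845 in cells alone at 6 h. At 24 h it was between 13053 and 17381 against 8722 to 13948, and at 48 h between 13170 and 19951 against 8409 to 12760. The part of RNA from macrophages in the results below was not tested, and in such bulk RNA fewer cells of a type and less RNA per cell cannot be told apart.

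The stretch of 250 bases before the transcription start was available in the RefSeq promoter table (build GRCm38.p6) for 5 of the 7 genes, not for Nos2 and Slc7a2. It is shown for Acod1 and Gch1, whose ratios were high on every array, and for Pts, which takes the step after Gch1 and whose ratio was below 0 on every array. Acod1 starts at position 103047012 of chromosome 14 and its upstream bases are chr14:103046762-103047011 on the plus strand. Those of Gch1 are chr14:47189414-47189663 and those of Pts chr9:50528657-50528906, both on the minus strand. Each is written 5′ to 3′ and ends at the base before the start in that table, and capitals mark the motifs named below it. The start of Pts in the table lies inside the gene span given below, so the last bases of its window are within that span.
Acod1: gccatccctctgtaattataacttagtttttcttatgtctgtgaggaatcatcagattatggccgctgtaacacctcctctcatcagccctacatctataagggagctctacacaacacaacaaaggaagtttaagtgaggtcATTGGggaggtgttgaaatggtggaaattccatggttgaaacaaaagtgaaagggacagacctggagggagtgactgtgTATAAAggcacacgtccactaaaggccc
Gch1: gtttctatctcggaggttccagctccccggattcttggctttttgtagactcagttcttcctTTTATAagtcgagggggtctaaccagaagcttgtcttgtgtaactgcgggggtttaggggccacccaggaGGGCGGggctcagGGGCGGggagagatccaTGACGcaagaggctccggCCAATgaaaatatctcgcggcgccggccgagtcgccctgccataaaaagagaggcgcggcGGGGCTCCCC
Pts: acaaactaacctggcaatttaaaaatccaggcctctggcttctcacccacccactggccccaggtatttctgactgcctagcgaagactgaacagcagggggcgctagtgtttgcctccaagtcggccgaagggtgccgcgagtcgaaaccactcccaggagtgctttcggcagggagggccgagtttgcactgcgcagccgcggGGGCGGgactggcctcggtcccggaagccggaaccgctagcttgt

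Motifs were searched on both strands of these 250 bases and of the same window of all 32851 promoters in the table. The Acod1 window held the TATA box TATAAA from 28 to 23 bases before the start, a motif found in 12.4% of all promoters, and the CCAAT box on the minus strand, found in 33.8%. The Gch1 window held the GC box GGGCGG at 2 places (32.7% of promoters hold it), the CRE half-site TGACG from 88 to 84 bases before the start (17.8%), CCAAT from 70 to 66 (33.8%), TATAAA on the minus strand from 188 to 183 and a κB motif in the last 10 bases (7.25%). The Pts window held GGGCGG alone. None of the 5 windows held the AP-1 motif TGANTCA (6.75%), the STAT motif TTCNNNGAA (7.02%), a pair of GAAA 2 bases apart as in the interferon-stimulated response element (2.98%) or the glucocorticoid receptor's half-sites GNACA and TGTNC with 3 bases between them (0.387%). These are matches of letters in 1 window and say nothing of a factor's binding.

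Acod1, the itaconate-making enzyme, lies on chromosome 14 from 103047012 to 103056573 and was read by 1 probe. Its ratio at 6 h was 3.05 in NT, 3.35 in S, 3.21 in C and 3.23 in CS, a mean of 3.21 ± 0.15 (SE of the fit, n = 4 arrays) or 9.25-fold. At 24 h the ratios were 2.05 in NT, 3.18 in S, 2.72 in C and 1.59 in CS, a mean of 2.38 ± 0.15 or 5.22-fold. At 48 h they were 3.38, 3.63, 3.22 and 3.34 in the same order, a mean of 3.39 ± 0.15 or 10.48-fold. The ratio was above 0 on all 12 arrays and at least 2-fold on all 12. The arrays of 24 h were the widest apart and the 3 with the lowest ratios of all 12 were among them, while the 4 arrays of 6 h and the 4 of 48 h overlapped. Without the arrays in doubt the mean at 24 h was 2.49 ± 0.16.

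Nos2, the inducible nitric oxide synthase on chromosome 11 (78920787 to 78960226), was read by 1 probe. At 6 h its ratio was 1.76 in NT, 2.10 in S, 2.40 in C and 2.43 in CS. At 24 h it was 1.00 in NT, 2.59 in S and 2.22 in C, and the spot of CS 24h was marked as an outlier by the scanner software and left out. At 48 h it was 0.54 in NT, 1.38 in S, 2.04 in C and 2.33 in CS. NT had the lowest ratio at each of the 3 times, and the fitted means, which fill in the missing array from the other treatments, were 2.17 ± 0.14 at 6 h (n = 4), 2.11 ± 0.18 at 24 h (n = 3) and 1.57 ± 0.14 at 48 h (n = 4). Without the arrays in doubt the means were 2.13 ± 0.14 at 6 h and 1.78 ± 0.18 at 24 h. The probe was bright in both channels, with a highest spot signal of 120445, and no spot of it was marked as saturated. With each array only centred on its median in place of loess, its mean ratio was 3.08 at 6 h, 3.24 at 24 h and 1.79 at 48 h.

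Gch1, which commits GTP to tetrahydrobiopterin, lies on chromosome 14 from 47153895 to 47189413. On its brighter probe the ratio at 6 h was 1.82 in NT, 2.02 in S, 1.73 in C and 1.79 in CS. At 24 h it was 1.33, 1.80, 1.53 and 1.08 in the same order, and at 48 h 2.75, 3.28, 2.98 and 3.17. All 4 arrays of 48 h were above all 8 of the earlier times, and the fitted means were 1.84 at 6 h, then 1.44, and 3.04 or 8.25-fold in the arrays of 48 h, each ± 0.08 (n = 4). The other Gch1 probe was dim and lay well above background in cells alone on 4 of 12 arrays, against 12 of 12 in co-cultured cells. Its ratios lay between 0.54 and 1.13, and since cells alone were well above background on 1 of 4 arrays at 48 h, it cannot show whether the ratio was higher there. At 6 h, where cells alone were not well above background on any array, co-cultured cells were at least 1.78-fold higher, a bound set by the dimmest probes well above background.

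The 2 enzymes after Gch1 did not share its ratio. Pts, the second enzyme of the pathway (chromosome 9, 50521617 to 50528716), had ratios between -0.27 and -0.15 at 6 h and between -0.18 and -0.07 at 24 h. At 48 h its ratio was -0.88 in NT, -1.04 in S, -1.01 in C and -1.11 in CS, below all 8 earlier arrays, with a mean of -1.01 ± 0.06 (n = 4). Spr, the last enzyme of the pathway (chromosome 6, 85133680 to 85137764), had ratios between -0.19 and 0.38 on the 12 arrays, 4 above and 8 below 0. The signs of the small Pts ratios at 6 h and 24 h and of the Spr ratios depended on the normalization. With median centring the mean Pts ratio was 0.0094 at 6 h and 0.25 at 24 h and the mean Spr ratio 0.36 at 6 h, where the median of all genes was 0.23 at 6 h and 0.39 at 24 h.

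The 2 genes of arginine supply differed in how well they could be read. Ass1 (chromosome 2, 31470270 to 31520670) had ratios on its brighter probe of 0.57 in NT, 0.30 in S, 0.32 in C and 0.33 in CS at 6 h. At 24 h they were 0.76 in NT, 0.75 in S and 0.67 in C, the spot of CS 24h being left out as an outlier, and at 48 h 0.17, 0.20, 0.07 and -0.08. All 3 measured arrays of 24 h lay above all others, while its second probe gave 0.75, 0.80 and 0.69 there and 0.33 in CS 24h. Median centring gave larger means of 1.37 at 6 h and 1.81 at 24 h, so the size of the Ass1 ratio depended on the normalization. Slc7a2 (chromosome 8, 40862341 to 40922070) was well above background on 1 of 12 arrays, NT 6h, where its ratio was 0.09. Its other 11 arrays were not well above background in either channel, so it was not tested and no fold is given.

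**Figure D2:**
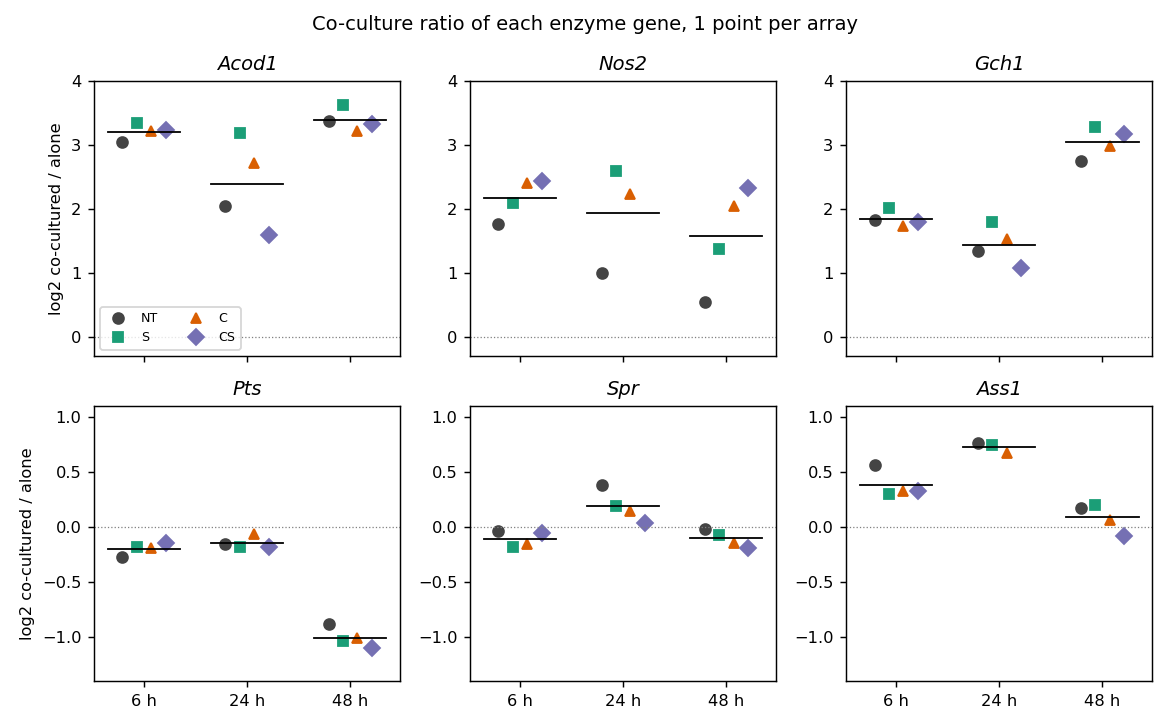
log2 ratio of co-cultured cells over cells alone (vertical axis) by time (horizontal axis) for 6 genes, 1 point per array and treatment, with a line at the mean of the arrays measured. Acod1, Nos2 and Gch1 lie above 0 on every array, Gch1 is highest at 48 h (2.75 to 3.28) and Pts lowest there (-1.11 to -0.88).

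The channels show which side of the ratio moved. Their levels make up the ratios known when the members were chosen. P-values for changes over time are therefore not independent of that choice. In cells alone the Acod1 level rose by 1.06 ± 0.23 from 6 h to 24 h (limma, adjusted p = 0.00794), and the Gch1 level rose by 0.61 ± 0.15 (adjusted p = 0.0118). These were 2 of the 6 genes tested, where 11.2% of all genes were called. From 6 h to 48 h in cells alone Nos2 rose by 0.80 ± 0.20 (adjusted p = 0.013) and Pts by 1.098 ± 0.13 (adjusted p = 3.79e-04), 2 of 6 against 13.8% of all genes. The Pts level in cells alone was between 10.04 and 11.03 at 6 h and between 11.64 and 11.81 at 48 h, with no overlap, while in co-cultured cells its change was 0.29 ± 0.13 (adjusted p = 0.0776), or -0.016 with median centring (adjusted p = 0.938).

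In co-cultured cells Gch1 was the member that rose over time. On its brighter probe the level was between 12.49 and 12.99 at 6 h and between 13.66 and 14.32 at 48 h. These did not overlap, and the rise was 1.15 ± 0.10 (adjusted p = 6.58e-06). In this comparison 28.7% of all genes were called. The change to 24 h on this probe was 0.21 ± 0.10 (adjusted p = 0.135). The dim Gch1 probe, well above background in co-cultured cells on 12 of 12 arrays, moved far less. Its mean level there was 7.46 at 6 h and 7.74 at 48 h, and the arrays of these times overlapped. The size of the Gch1 rise therefore rests on the brighter probe. None of the 6 genes was called from 6 h to 24 h in co-cultured cells, where 8.94% of all genes were. The Acod1 change to 48 h there was 0.36 ± 0.11 (adjusted p = 0.0172, under the fold threshold) and that of Nos2 0.20 ± 0.12 (adjusted p = 0.188). Of the 16 macrophage markers 3 were higher and 2 lower in co-cultured cells at 48 h, and their part in the Gch1 rise was not tested.

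The call of Gch1 in cells alone at 24 h was the least stable of these. It was lost without the 3 arrays in doubt (0.48, adjusted p = 0.12) and on leaving out NT 6h, S 6h, CS 6h, NT 24h or CS 24h one at a time, with values from 0.48 to 0.58. Without those 3 arrays Nos2 (0.79, adjusted p = 0.0223) and Spr (-0.65, adjusted p = 0.0255) were called there, and leaving out S 24h by itself also called Nos2 (0.82, adjusted p = 0.00503).

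**Figure D3:**
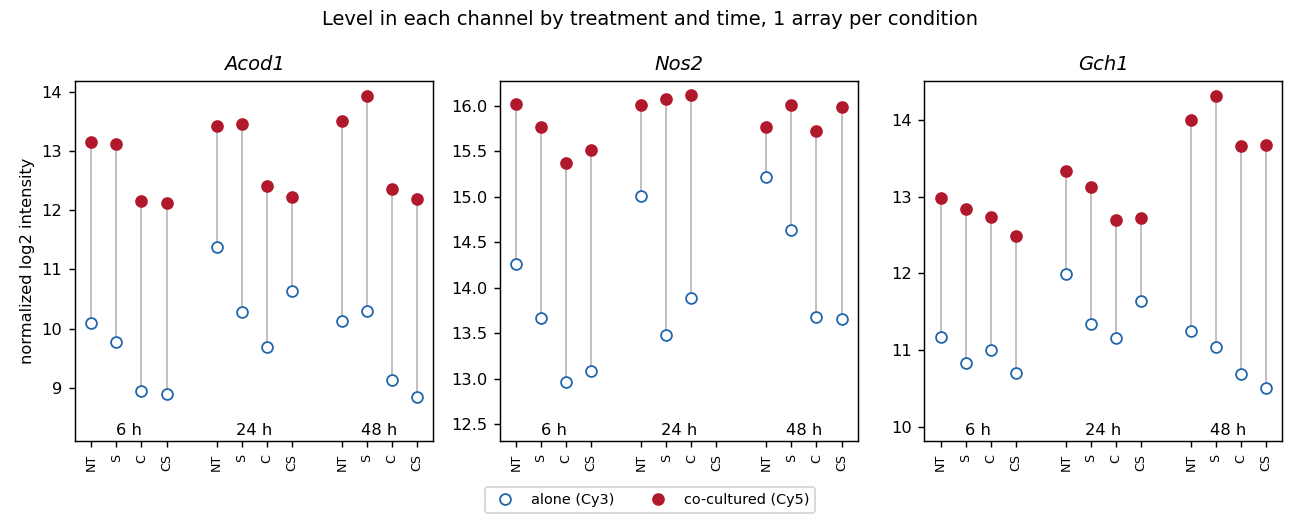
Normalized log2 intensity (vertical axis) of Acod1, Nos2 and Gch1 in cells alone (open points, Cy3) and co-cultured cells (filled points, Cy5) for each treatment and time (horizontal axis), 1 array each, with a line joining the channels of an array. Acod1 in co-cultured cells lies between 12.13 and 12.41 on all 6 arrays with cortisol and between 13.12 and 13.92 on the 6 without.

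Acod1 was lower with cortisol in co-cultured cells. Its level there was 13.15 in NT, 13.12 in S, 12.16 in C and 12.13 in CS at 6 h, then 13.42, 13.46, 12.41 and 12.22 at 24 h, and 13.51, 13.92, 12.35 and 12.19 at 48 h. The 6 arrays with cortisol lay below the 6 without and did not overlap them. The mean effect was -1.19 ± 0.09, or 2.28-fold lower (limma, adjusted p = 1.69e-04), and the level was lower in 6 of 6 matched pairs. It was -1.36 ± 0.09 (adjusted p = 0.00482) without the 3 arrays in doubt, and from -1.25 to -1.10 with any 1 array left out. Acod1 was the 1 member called of 6 tested, where 2.6% of all genes were called. Of the 16 macrophage markers 1 was called with it, Csf1r, the receptor of a macrophage growth factor (-0.63 ± 0.08, adjusted p = 0.0019), and their median was -0.23. Their summed intensity in co-cultured cells was between 13053 and 17201 on the 6 arrays with cortisol and between 16365 and 19951 on the 6 without, and its part in the Acod1 result was not tested.

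In cells alone the Acod1 level also fell with cortisol, by a mean effect of -0.96 ± 0.19 (adjusted p = 0.0337), and it was lower in 5 of 6 pairs. The pair that went the other way was CS 24h (10.63) against S 24h (10.28), both libraries in doubt. At 48 h, where the labels and the glucocorticoid-induced genes went together, the level in cells alone was 10.13 in NT and 10.29 in S against 9.14 in C and 8.85 in CS. Without the 3 arrays in doubt the effect was -1.33 ± 0.15 (adjusted p = 0.0164). Because the level fell in both channels, the effect of cortisol on the Acod1 ratio was -0.22 with a 95% interval from -0.60 to 0.15 (adjusted p = 0.817), and -0.027 from -0.36 to 0.31 without those arrays.

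Nos2 fell with cortisol in cells alone, and no fall was detected in co-cultured cells. In cells alone its level was 14.26 in NT, 13.67 in S, 12.97 in C and 13.09 in CS at 6 h, then 15.01 in NT, 13.48 in S and 13.89 in C at 24 h, and 15.22, 14.64, 13.68 and 13.66 at 48 h. The mean effect was -0.93 ± 0.17 (adjusted p = 0.0335), lower in 5 of 5 pairs, and -1.10 ± 0.11 (adjusted p = 0.0115) without the arrays in doubt. In co-cultured cells the level was between 15.37 and 16.12 on all 11 arrays. The lowest were C (15.37) and CS (15.52) at 6 h. The level was lower with cortisol in 4 of 5 pairs, with differences from -0.65 to 0.11. The mean effect was -0.15 with an interval from -0.39 to 0.10 (adjusted p = 0.426). The difference between the channels is the effect of cortisol on the ratio, 0.78 ± 0.18, which was higher in 5 of 5 pairs but did not pass the adjustment (adjusted p = 0.347, or 0.262 without the arrays in doubt). With median centring in place of loess it was 0.83 and was called (adjusted p = 0.00195). Under that setting the median of all genes was 0.11, and 63 genes were called higher and 11 lower, against 2 and 0 with loess.

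Acod1 and Nos2 were thus 2 of 6 members called for cortisol in cells alone, where 0.998% of all genes were called. These calls sat close to the threshold. With all 12 arrays, the Acod1 call was kept on leaving out S 24h, CS 24h or NT 48h and lost on leaving out any other single array, with effects from -1.14 to -0.83 and adjusted p-values from 0.00922 to 0.107. The Nos2 call was kept without S 24h, C 24h or CS 24h and lost without any other, with effects from -1.10 to -0.80 and adjusted p-values from 0.0209 to 0.0992.

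Gch1 and Ass1 were not called for cortisol in either channel. In co-cultured cells the Gch1 effect of cortisol was -0.44 ± 0.08 (adjusted p = 0.0076) and that of Ass1 -0.45 ± 0.06 (adjusted p = 0.00334), lower in 6 of 6 and 5 of 5 pairs. Both were under the 1.5-fold threshold. Without the arrays in doubt the effects were -0.57 ± 0.10 (adjusted p = 0.0588) and -0.47 ± 0.09 (adjusted p = 0.0657). In cells alone they were -0.32 ± 0.12 and -0.31 ± 0.08 (adjusted p = 0.164 and 0.0904). Pts had effects of 0.12 ± 0.11 in cells alone and 0.12 ± 0.10 in co-cultured cells and Spr 0.063 ± 0.083 and -0.042 ± 0.069, none of them called. With loess no member was called for cortisol on the ratio, where 0.0145% of all genes were called and 984 genes had an unadjusted p under 0.05.

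**Figure D4:**
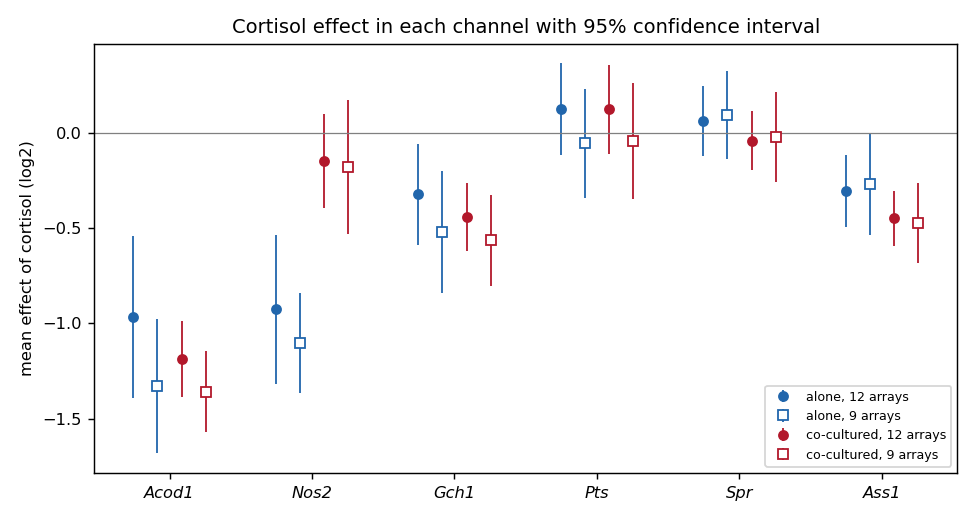
Mean effect of cortisol in log2 (vertical axis) on 6 genes in cells alone (blue) and co-cultured cells (red), with 12 arrays (filled) and without S 6h, S 24h and CS 24h (9 arrays, open). Bars are 95% confidence intervals of the limma fit, and Nos2 lies at -0.93 in cells alone against -0.15 in co-cultured cells.

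Serotonin gave no call among the members. With limma, 0% of all genes were called for serotonin on the ratio, 0% in cells alone and 0% in co-cultured cells, although 823, 731 and 970 genes had an unadjusted p under 0.05. The member values farthest from 0 on the ratio and in cells alone were those of Nos2, with an effect on the ratio of 0.58 (interval from 0.18 to 0.98, adjusted p = 0.819) and in cells alone of -0.51 (from -0.90 to -0.12, adjusted p = 0.868). Without the 3 arrays in doubt the former was 0.33 (from -0.09 to 0.75) and the latter -0.21 (from -0.50 to 0.07). The effect of serotonin on the Acod1 level in co-cultured cells was 0.0064, with an interval from -0.19 to 0.20.

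The other genes of these pathways were described from 5 lists of 93 genes in all, 83 of them tested. The lists were chosen with earlier results of these arrays known. Their shares and p-values therefore describe these data and are no independent test. At 6 h 15 of the 83 were called in co-cultured cells over cells alone (13 higher, 2 lower), or 18.1%, where 9.67% of all genes were called. At 24 h 11 were called (5 higher, 6 lower), or 13.3% against 8.39%, and at 48 h 31 (16 higher, 15 lower), or 37.3% against 31.4%. With median centring the same lists gave 49 higher and 0 lower, 47 higher and 1 lower, and 16 higher and 21 lower, so the balance of directions depended on the normalization.

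A list of 11 genes linked to itaconate or NRF2 held Nfe2l2 and Keap1 themselves. Of the 11, 6 were higher at 6 h (54.5% called, against 9.67% of all genes) and 3 at 24 h (27.3% against 8.39%). At 48 h 5 were higher and 1 lower (54.5% against 31.4%). The median ratios of the 11 were 0.61, 0.40 and 0.39, where the medians of all genes tested were -0.017, 0.0015 and -0.014. The list set no direction of response, and a response to itaconate was not tested. At 6 h Slc7a11, the cystine carrier, was highest at 1.18 ± 0.14 (adjusted p = 7.34e-05), followed by Gclc, which makes glutathione with Gclm, at 0.78 ± 0.16 and by Hmox1, the haem oxygenase, at 0.74 ± 0.06. At 24 h the called genes were Nfkbiz, an NF-κB cofactor (1.34 ± 0.10), Srxn1, which restores peroxiredoxins (0.73 ± 0.07), and Gclc (0.60 ± 0.16). At 48 h Txnrd1, the thioredoxin reductase, was highest at 1.96 ± 0.08 (adjusted p = 5.65e-09), then Gclc at 1.63 ± 0.16 and Srxn1 at 1.29 ± 0.07. Nfe2l2, the gene of NRF2 itself, was lower at 48 h (-1.24 ± 0.12). Slc7a11 was at -0.37 ± 0.14 at 48 h and Nfkbiz at 0.019 ± 0.097, neither of them called there.

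**Figure D5:**
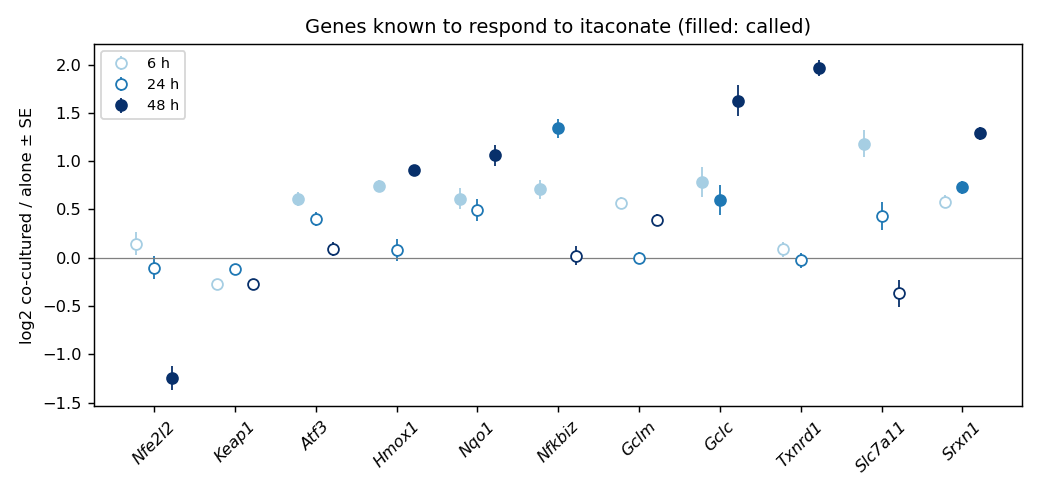
log2 ratio of co-cultured cells over cells alone with the SE of the fit (vertical axis) for 11 genes linked to itaconate or NRF2 (horizontal axis). Each of the 3 times has a colour, and points are filled where called. Slc7a11 is highest at 6 h (1.18), Nfkbiz at 24 h (1.34) and Txnrd1 at 48 h (1.96), and Nfe2l2 is lowest at 48 h (-1.24).

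Of 25 genes of the citrate cycle, the source of cis-aconitate, its carriers and linked enzymes outside it such as Mmut, all were tested. None was called higher and 1 lower at 6 h (Slc25a11, the oxoglutarate carrier, -0.63 ± 0.06), and 2 were lower at 24 h (Idh1 at -0.84 ± 0.13 and Ogdh at -0.68 ± 0.06). The shares called at these times were 4% and 8%, against 9.67% and 8.39% of all genes. At 48 h the median of the list was -0.28, against -0.014 over all genes. Of the list 8 were then called lower and 2 higher, or 40% against 31.4% of all genes. The lower ones were led by Mmut, methylmalonyl-CoA mutase (-1.73 ± 0.06), Idh3a, a subunit of the isocitrate dehydrogenase of the cycle (-1.42 ± 0.08), and Idh1, its cytosolic relative (-1.31 ± 0.13), and the higher ones were Mdh2 (0.80 ± 0.05) and the citrate carrier Slc25a1 (0.65 ± 0.09).

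Of 26 genes of arginine, nitric oxide and polyamines 18 were tested. The shares called at the 3 times were 11.1%, 22.2% and 27.8%, against 9.67%, 8.39% and 31.4% of all genes. At 6 h Asl, which releases arginine in the step after Ass1, was higher (0.64 ± 0.06), as was Sat1, which breaks down polyamines (0.61 ± 0.05). At 24 h Ddah1, which clears the inhibitors of nitric oxide synthase, was higher (1.20 ± 0.07), and Odc1, the first enzyme of polyamine synthesis (-0.80 ± 0.11), Sms (-0.79 ± 0.05) and Azin1 (-0.75 ± 0.06) were lower. At 48 h the arginine carrier Slc7a3 (0.90 ± 0.07), Ddah1 (0.66 ± 0.07) and Asl (0.66 ± 0.06) were higher, and Azin1 (-1.39 ± 0.06) and the spermidine synthase Srm (-0.73 ± 0.06) were lower.

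Of 12 other biopterin genes 11 were tested, and at 48 h Gchfr, the feedback regulator of Gch1, was called higher (0.59 ± 0.10, adjusted p = 3.17e-04). Of 19 inducing factors and receptors 18 were tested. At 6 h 5 were higher, led by Nfkbia, the NF-κB inhibitor (0.83 ± 0.09), the receptor Tlr2 (0.77 ± 0.14) and the factor Cebpb (0.73 ± 0.07), and at 24 h Nfkbia alone was called (0.75 ± 0.09). At 48 h 5 were higher, led by Cebpb (1.95 ± 0.07), Nfkbia (1.20 ± 0.09) and Irf1 (0.87 ± 0.13), and 4 were lower, led by Hif1a (-0.997 ± 0.084), Myd88 (-0.90 ± 0.05) and Tlr2 (-0.78 ± 0.14).

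With hormones 1 gene of the 83 was called, or 1.2%, where 2.6% of all genes were called for cortisol in co-cultured cells. Nqo1, an NRF2-driven quinone reductase, fell with cortisol in co-cultured cells (-0.77 ± 0.13, adjusted p = 0.0049). Its level there was between 12.75 and 13.50 on the 6 arrays with cortisol and between 13.62 and 13.98 on the 6 without, and without the arrays in doubt the effect was -0.90 ± 0.17 and not called (adjusted p = 0.0658). None of the 83 was called for cortisol in cells alone, for cortisol on the ratio or for serotonin.

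Over time, 9 of the 83 were called in cells alone from 6 h to 24 h (10.8%, against 11.2% of all genes) and 14 from 6 h to 48 h (16.9% against 13.8%). In co-cultured cells 8 were called (9.64% against 8.94%) and 29 (34.9% against 28.7%), so that the shares at 24 h were near those of all genes. From 6 h to 48 h the calls were 6 higher and 8 lower in cells alone and 10 higher and 19 lower in co-cultured cells, and with median centring 23 higher and 3 lower, and 2 higher and 26 lower. In co-cultured cells at 48 h Cebpb was higher (1.14 ± 0.08), and Slc7a11 (-1.81 ± 0.16), Azin1 (-1.60 ± 0.09) and Mmut (-1.18 ± 0.11) were lower. In cells alone at 48 h Nfe2l2 was higher (0.92 ± 0.19), and Srxn1 (-1.22 ± 0.17), Ddah1 (-1.13 ± 0.13) and Slc7a3 (-0.97 ± 0.16) were lower.

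The patterns of the 3 genes with high ratios were not alike. Over the arrays, which share slides, r of the log2 ratios was 0.74 between Acod1 and Gch1 (12 arrays), 0.19 between Acod1 and Nos2 and -0.20 between Nos2 and Gch1 (11 arrays each), while Gch1 and Pts had r = -0.95. Among 12368 genes measured on all arrays, the 5 with the pattern most like Acod1 were Mup4 (r = 0.97), Lst1 (0.94), Pi4k2b (0.94), Man2b1 (0.93) and Mvb12a (0.92). For Nos2 they were Pick1 (0.92), Cemip2 (0.90), Serping1 (0.90), the glucocorticoid receptor gene Nr3c1 (0.89) and Wfdc12 (0.89), and for Gch1 Ptgis (0.98), Fam8a1 (0.98), Rhoh (0.98), Spg7 (0.98) and App (0.98). The ratios of these genes were far smaller than those of the 3 members, as that of Mup4, from -0.65 to 0.22, or that of Ptgis, from -0.43 to 0.74. These are descriptions over 12 arrays in 3 groups of time, with no test.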

How the data were processed

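The data were 12 Agilent arrays with both dyes, carrying RNA of 3T3-L1 cells. Spots were read by the authors using Feature Extraction software, whose version is 10.7.3.1 in the headers, whereas the submitters' processing notes name 10.5.1.1. Deposited were the linear intensity of each channel, the log10 ratio of Cy5 over Cy3, and other columns with flags. The table of values from the authors holds this log10 ratio too (largest difference 0.00499, each median 0) and was not used further.

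Background was corrected on the median signals of the spots by normexp with an offset of 50, and loess followed. R 4.3.3 and its package limma 3.58.1 were used. Spots whose local background was over 5 times its median on the array were corrected with that median and then left out, and so were control and outlier spots. Channels were then scaled by Aquantile. Probes were named through RefSeq (GRCm38.p6), were kept if 3 or more arrays had them well above background in 1 of the channels (23031 probes), and the brightest stood for a gene. Ratios and channels were each fitted on 12 arrays by an additive model of treatment and time (residual degrees of freedom 6), with lmFit and eBayes and a variance trend on mean intensity. Hormone effects are means over the presence of the other hormone. P-values are two-sided and Benjamini-Hochberg adjusted over all genes tested. For the 7 genes no p is given for the ratios. The models were tested on simulated data. The number of arrays limits the precision.

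The members, the 5 pathway lists and the marker lists were chosen with earlier results of these data known. Of each list, the called genes with the 3 highest and 3 lowest values were taken in the co-culture and hormone comparisons, and over time the highest and the 3 lowest over all lists, and the 5 genes most like Acod1, Nos2 and Gch1 by Pearson r of the ratio, leaving out clone and predicted names. Some results that this rule would name are not reported here. Alternatives changed the offset, the normalization, the filter, the probe rule, the weights, the fold threshold, the arrays and the hormone contrast. Plots used matplotlib 3.10.9 (python 3.11.15).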

Additional observations from a re-analysis of the deposited data

Results flagged for a closer look

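In 48 groups of 4 arrays of a time (ratio and both channels of the 6 genes), 3 had an array far from the other three by Dixon's test at 95%, and chance flags about 1 group in 20. The Ass1 ratio of NT 6h was 0.57, against 0.30 to 0.33 on the other arrays of 6 h. The Ass1 level in cells alone was 14.93 in the library labelled S 6h, which is in doubt, against 14.53 to 14.58. The Spr level in co-cultured cells was 12.49 in CS 48h, against 12.70 to 12.73.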

How the results depend on the processing

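Mean spot signals were planned and not run, since the scanner files used here hold median signals. Without loess, median centring moved the median ratio of all genes at the 3 times to 0.23, 0.39 and -0.16, and the share of called genes that were higher from 45.5%, 55.9% and 46.4% to 93.8%, 97.7% and 30.4%. That share moved from 72.5% to 54.9% and from 62.2% to 75.4% for cortisol in cells alone and co-cultured. Pathway calls then numbered 49 (49 higher, 0 lower) at 6 h and 48 (47 higher, 1 lower) at 24 h, 3 for cortisol in co-cultured cells and 26 from 6 h to 48 h in cells alone, Nos2 became the 1 member called for cortisol on the ratio, 1 member was called from 6 h to 24 h in cells alone, and the change of Pts from 6 h to 48 h in co-cultured cells was -0.016 in place of 0.29. Processed signals gave 18 pathway calls at 24 h. With no fold threshold pathway calls were 48, 50 and 66 at the 3 times, 3 and 13 for cortisol in cells alone and co-cultured, 19 and 28 over time in cells alone and 28 and 47 in co-cultured cells, and members called were 3 for cortisol in co-cultured cells and 1 and 2 over time there. At 2-fold the pathway calls were 1, 2 and 12, 0 for cortisol in co-cultured cells, 2 and 2 over time in cells alone and 1 and 9 in co-cultured cells, and members called were 0 for cortisol in cells alone and 1 and 1 over time in them. With no filter 0 members were called for cortisol in cells alone, where more genes were tested (adjusted p = 0.0658 for Acod1 and 0.064 for Nos2). C against NT called 0 members and 1 pathway gene in cells alone and 2 pathway genes in co-cultured cells. Averaging the probes of a gene, weighting arrays and keeping high backgrounds each called 1 member from 6 h to 24 h in cells alone. Without S 6h, S 24h and CS 24h, 0 pathway genes were called for cortisol in co-cultured cells and 5 from 6 h to 24 h there. Leaving out each array gave 0 to 2 members for cortisol in cells alone, 1 for cortisol in co-cultured cells and 1 to 3 from 6 h to 24 h in cells alone. Pathway calls then ranged from 13 to 17 at 6 h, 11 to 13 at 24 h, 30 to 33 at 48 h, 0 to 1 and 1 to 2 for cortisol in cells alone and co-cultured, 7 to 10 and 10 to 15 over time in cells alone and 5 to 8 and 28 to 30 in co-cultured cells. The 5 was reached without S 24h or C 24h, the 2 for cortisol without NT 48h and the 1 without CS 24h. The mean ratios of Acod1 stayed between 2.38 and 3.66 under the alternatives run, leaving out single arrays aside, those of Nos2 between 1.38 and 3.24 and those of Gch1 between 1.04 and 3.19. No paired analysis was possible because the labels carry no replicate numbers, and the matched pairs of the report are arrays of 1 time that differ in 1 hormone.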
